A study of Rattus norvegicus with 138 samples.

Results

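The miR-191 and miR-425 locus was followed through 3 of the 471 microRNAs counted in rat serum: miR-191a-5p and miR-191a-3p, the opposite arms of the miR-191a hairpin, and miR-425-5p, from the neighbouring miR-425 hairpin. They were chosen by name, and with results of these data known: miR-191a-5p was the most abundant microRNA of the table, and its level differed between months and between depleted uranium and the control metal. Its abundance, its month differences and the differences of all 3 members under depleted uranium are therefore given as descriptions without a test. The other 7 metals, the change of a metal's effect with month, and the ratios between the members were tested. These tests use the same Ta libraries that entered the contrast with depleted uranium, so those of miR-191a-5p and of its ratios are not independent of the choice of members.

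Small RNA was sequenced from the serum of male Sprague-Dawley rats that carried metal pellets in both gastrocnemius (calf) muscles, 2 pellets of 1 mm by 2 mm per limb and 4 per rat, implanted at 3 months of age. The pellets were of depleted uranium (DU), lead (Pb), tungsten (W), copper (Cu), iron (Fe), aluminium (Al), nickel (Ni), cobalt (Co) or tantalum (Ta), the surgical control, described by the submitters as inert in muscle; all groups therefore share the surgery and an implant. Serum was sampled at 1, 3, 6 and 12 months (mo) after implantation. The libraries formed 35 groups of 4, except that Ta and W at 6 mo had 3 each; Ni at 12 mo was not analysed here. The submitters state 8 rats per group, and the labels number the libraries without naming rats, so it is not known whether a library is a single rat or whether a rat was sampled at several months; p-values measure the spread between libraries.

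A microRNA is cut from a hairpin transcript by the nucleases Drosha and Dicer, which leave a short duplex of a 5p and a 3p arm. As a rule a single arm is loaded into an Argonaute protein and kept while its partner is degraded, so the 5p and 3p reads of a hairpin usually differ greatly in number. miR-191 and miR-425 are made from a shared transcript in an intron of DALRD3, are expressed in many tissues and blood cells, and miR-191-5p is among the microRNAs used as a reference in serum and plasma assays. Serum holds microRNA shed by many tissues, so a change in the cells that release it cannot be told apart from a change in the amount each releases.

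The sequences below, from RefSeq on build GRCr8, are shown because the members differ in the seed, the bases 2 to 8 that pair with target RNAs, which is in capitals. The submitters' processing notes name another build, Rnor_6.0.
miR-191a-5p: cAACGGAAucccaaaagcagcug
miR-191a-3p: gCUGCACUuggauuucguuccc
miR-425-5p: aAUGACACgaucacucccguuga
miR-425-3p: aUCGGGAAuaucguguccgcc
miR-191b: gAACGAAAuccaagugcagcu
The first 4 lie on the plus strand, miR-191a-5p at chr8:118142641-118142663, miR-191a-3p at chr8:118142683-118142704, miR-425-5p at chr8:118143094-118143116 and miR-425-3p at chr8:118143135-118143155. The hairpins Mir191 and Mir425, of 91 and 83 bases, are 366 bases apart, and both lie inside the gene Dalrd3. None of the 3 members shares a seed with another member. The seed of miR-191a-3p is shared with 1 other microRNA of the table, miR-17-2-3p, and those of miR-191a-5p and miR-425-5p with none. miR-191b, at chr8:118142682-118142702, is read from the minus strand of the miR-191a hairpin, opposite miR-191a-3p over 20 bases.

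The 2 hairpins are shown whole, with the arms in capitals, to place each 5p arm against its partner.
Mir191: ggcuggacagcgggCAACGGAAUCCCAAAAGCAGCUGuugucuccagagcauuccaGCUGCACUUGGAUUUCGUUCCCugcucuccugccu
Mir425: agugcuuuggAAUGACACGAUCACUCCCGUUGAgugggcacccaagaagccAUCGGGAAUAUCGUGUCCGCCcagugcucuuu

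The libraries held from 518 to 6406599 microRNA counts, with a median of 685384.5, and a median of 177 microRNAs was detected per library. Those of 3 mo were poorest, at a median of 286094 counts and 99.5 microRNAs. 6 libraries held fewer than 20000 counts and are open symbols in the plots by group: 4 at 3 mo (Ta replicate 3, Ni replicate 3, Al replicate 3 and DU replicate 4), W replicate 3 at 12 mo and Co replicate 1 at 1 mo. Levels below are CPM, counts brought to a library of 1000000 after trimmed-mean scaling of the libraries, and are called scaled CPM. In libraries dominated by a few microRNAs the scaling can raise a value above 1000000, as for miR-191a-5p in Fe replicate 3 at 1 mo with 1173532 scaled CPM.

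Over all libraries, miR-191a-5p had 33332841 counts, or 22.9% of all counts, ahead of miR-10a-5p with 16.2%. Both figures are sums over libraries of unequal depth. It was detected in every library, and its share ran from 0.449% (exact 95% interval 0.262 to 0.717%) in W replicate 3 at 12 mo to 62.0% in Fe replicate 3 at 1 mo. The interval covers counting error only, since the sources used here name no molecular identifiers. miR-191a-5p was the leading microRNA in 52 libraries, and its poorest rank was 18.

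The other products of the locus were scarce. miR-191a-3p had 35218 counts, rank 90 of 471, and was detected in 108 libraries; miR-425-5p had 15595 counts, rank 115, and was detected in 107 libraries. The second arm of the miR-425 hairpin, miR-425-3p, had 2094 counts in 55 libraries, and the antisense miR-191b had 1221 counts in 43 libraries. In summed counts, miR-191a-5p was 946 times as frequent as miR-191a-3p and 2137 times as frequent as miR-425-5p. The arms of miR-425 were less unequal, with 7.45 counts of the 5p arm per count of the 3p arm. miR-191a-5p outnumbered both other members in every library. Ligation bias differs between small RNA sequences, so ratios between sequences in a library are not ratios of molecules, whereas the same ratio can be compared between groups.

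miR-191a-5p, the dominant arm, had a mean of 353123 ± 291255 scaled CPM (SD, n = 36) at 1 mo and 48904 ± 66033 (n = 36) at 3 mo. At 6 mo the mean was 221481 ± 184472 (n = 34), and at 12 mo it was 175359 ± 205108 (n = 32). Its share of raw counts, which does not depend on the scaling, moved the same way, with means of 27.1, 5.37, 18.6 and 13.5% in that order. At 1, 3, 6 and 12 mo it led 24 of 36, 2 of 36, 14 of 34 and 12 of 32 libraries. The 3 mo libraries were thus low, and the ranges of the months still overlapped. In the fit over 8 metals including Ta, with Ni left out, the difference of 3 mo from 1 mo was -2.97 ± 0.31 (SE) on the log2 scale, that of 6 mo from 3 mo 2.27 ± 0.31, and that of 12 mo from 6 mo -0.63 ± 0.30.

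**Figure D1:**
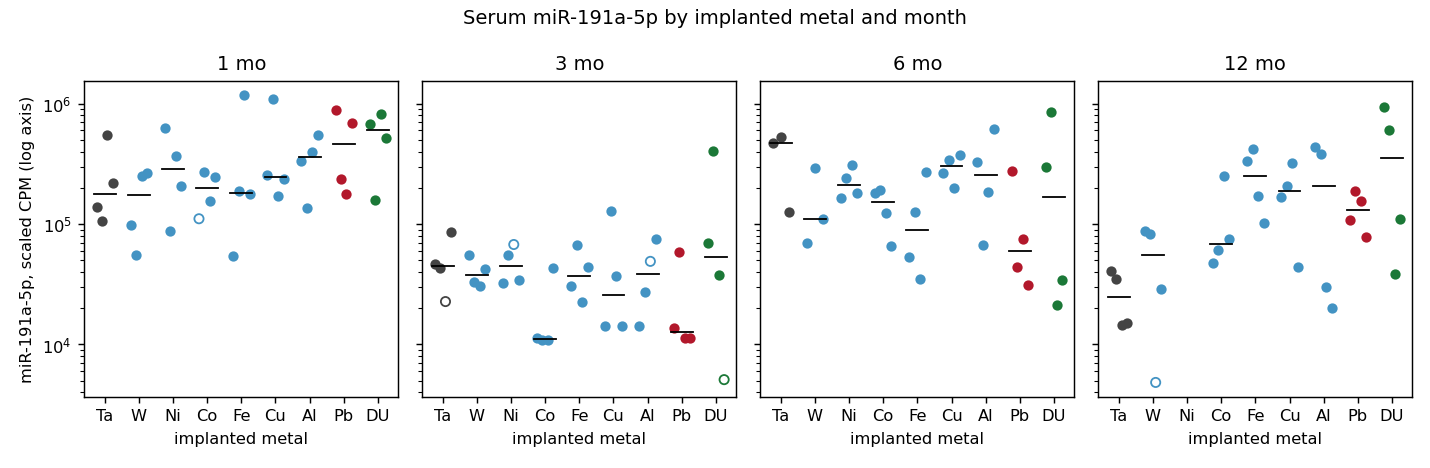
Scaled CPM of miR-191a-5p (log axis) in each serum library, by implanted metal, in a panel per month; bars are group medians and open symbols are libraries under 20000 counts. The 3 mo median is the lowest of every metal but Ta, whose 12 mo median is lower, and at 12 mo the 4 Ta libraries, from 14604 to 40463, sit below all 4 libraries of Fe, Cu, Pb and Co.

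Signs of sample quality moved with month as well. The log2 ratio of miR-451-5p, an erythrocyte microRNA, to miR-23a-3p, used as a sign of haemolysis, averaged -1.71, 1.74, -0.85 and -1.53 at 1, 3, 6 and 12 mo. Of the 6 microRNAs listed as erythrocyte markers (miR-451-5p, miR-144-3p, miR-144-5p, miR-486, miR-16-5p and miR-15b-5p), 5 were in the table and none of those 5 was at 0 in all libraries of a month. Their summed level reached from 1282 to 8727 scaled CPM at 1 mo and from 0 to 741386 at 3 mo, and then from 595 to 33978 (6 mo) and from 1335 to 10942 (12 mo). The highest value at 3 mo is that of Ta replicate 3, which held 1645 counts; without the libraries under 20000 counts the 3 mo range was 716 to 20899. The medians over all libraries differed less, at 4055, 5356, 4314 and 3161 in order of month. From 1 to 3 mo the mean log2 scaled CPM of miR-23a-3p went from 12.55 to 9.95, and that of miR-451-5p from 10.55 to 11.49. These means cover libraries of at least 20000 counts, and both shifts raise the ratio. The part of haemolysis and of depth in the month differences was not tested.

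miR-191a-3p, the scarce partner arm, followed a similar course to 3 mo. It was detected in 36 of 36, 14 of 36, 27 of 34 and 31 of 32 libraries at 1, 3, 6 and 12 mo, with means of 356 ± 305, 92.3 ± 173, 211 ± 259 and 225 ± 203 scaled CPM. At 3 mo the 22 libraries without a count had a median depth of 206986 and the 14 with counts a median of 458049. The fitted log2 difference was -2.30 ± 0.62 from 1 to 3 mo, 0.30 ± 1.04 from 3 to 6 mo and 1.20 ± 0.58 from 6 to 12 mo. The 6 mo mean includes the Pb group, which had no count at all.

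The fitted month differences of miR-425-5p were smaller than those of miR-191a-5p, had the same signs, and were each smaller than their SE. It was detected in 34 of 36, 18 of 36, 27 of 34 and 28 of 32 libraries at 1, 3, 6 and 12 mo, with means of 85.4 ± 53.3, 176 ± 355, 126 ± 246 and 75.6 ± 60.1 scaled CPM. The fitted log2 differences were -0.50 ± 0.52 from 1 to 3 mo, 0.53 ± 0.54 from 3 to 6 mo and -0.28 ± 0.61 from 6 to 12 mo. The high mean at 3 mo came from few libraries, such as Pb replicate 3 with 1794 and Fe replicate 4 with 1030 scaled CPM, while the median was 15.2. Pb replicate 3 held 70454 counts, 174 of them of miR-425-5p.

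The order of the metals changed from month to month for each member. At 1 mo the group medians of miR-191a-5p ran from DU with 601130 scaled CPM through Pb (467386), Al (364428), Ni (287252), Cu (248589), Co (201233), Fe (182949) and Ta (179091) to W (175477). At 3 mo DU was again at the top with 53498, followed by Ni (44939), Ta (44887), Al (38221), W (37693), Fe (37138), Cu (25549), Pb (12599) and Co (11189). At 6 mo the control was the highest group, with Ta at 468043, then Cu (303175), Al (255198), Ni (210246), DU (167352), Co (151457), W (110377), Fe (89153) and Pb (59506). At 12 mo the control was the lowest, with DU at 357162, Fe at 252734, Al at 205402, Cu at 187533, Pb at 131886, Co at 68148, W at 55664 and Ta at 24975. Neighbours in these orders overlapped in every case, at all 4 months and for all 3 members, so that no rank differs from the next beyond the spread between libraries.

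For the scarcer members the medians were spread less evenly. Those of miR-191a-3p at 1 mo ran from 144 (Ta) to 533 (Pb) scaled CPM, and at 3 mo they were 0 in 5 of 9 groups, with the highest value in W. At 6 mo they ran from 0 (Pb) to 406 (Cu), and at 12 mo from 64.4 (Pb) to 414 (Al). Those of miR-425-5p at 1 mo ran from 52.4 (Ni) to 128 (DU), and at 3 mo they were 0 in Fe, Co and Cu and highest in DU, with 195. At 6 mo they ran from 0 (Pb) to 224 (Fe), and at 12 mo from 38.8 (DU) to 129 (Co). Pb was thus the highest group for miR-191a-3p at 1 mo and the lowest at 6 and 12 mo.

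**Figure D2:**
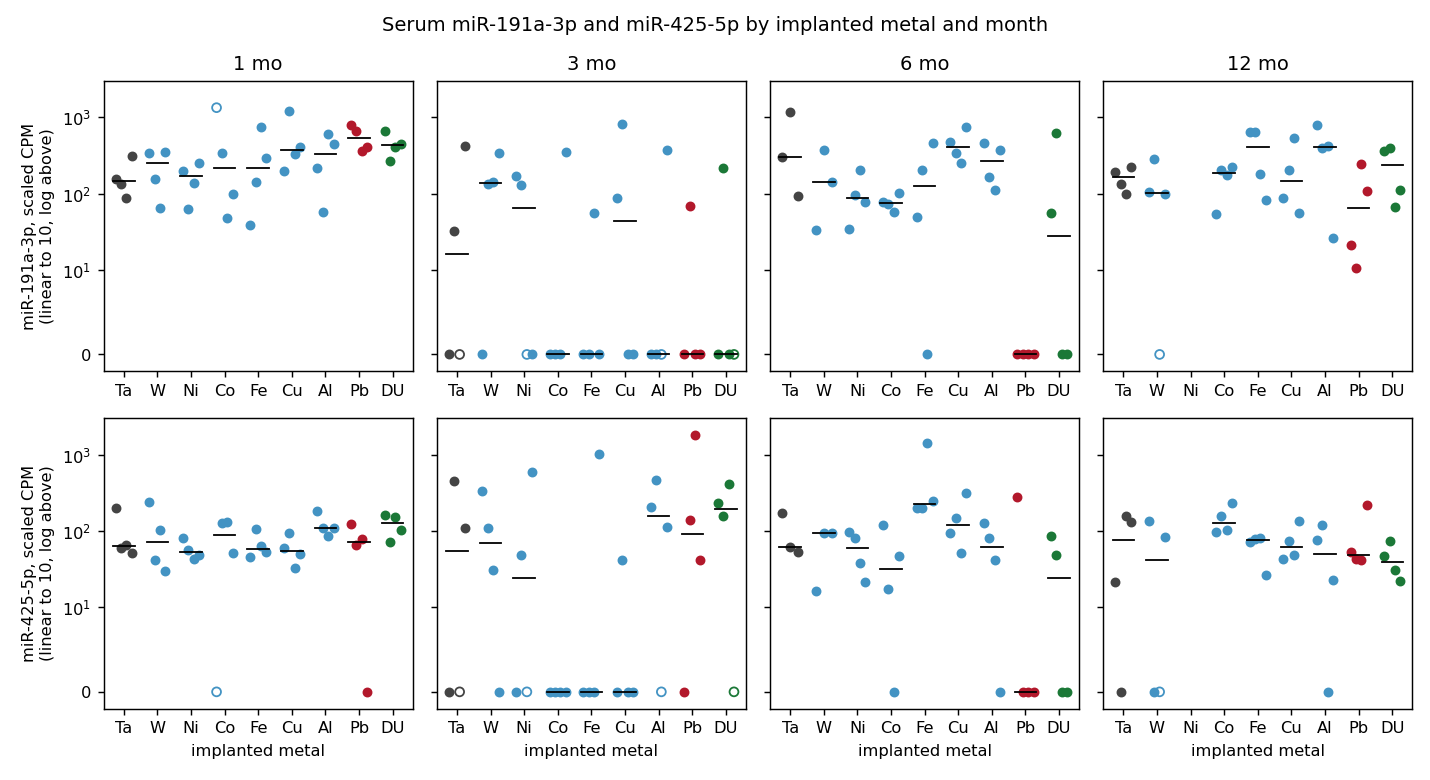
Scaled CPM of miR-191a-3p (upper row) and miR-425-5p (lower row) in each serum library by implanted metal, in a panel per month; the axis is linear to 10 and logarithmic above, bars are group medians and open symbols are libraries under 20000 counts. All 4 Pb libraries at 6 mo lie at 0 for miR-191a-3p, and all 4 Co libraries at 3 mo lie at 0 for miR-425-5p.

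Depleted uranium, whose contrast with Ta was used in choosing the members, was higher than Ta for miR-191a-5p by 1.55 ± 0.43 (SE) on the log2 scale, averaged over months. The same average was -0.19 ± 0.86 for miR-191a-3p and -0.38 ± 0.88 for miR-425-5p. By month, the fitted difference of miR-191a-5p at 1, 3, 6 and 12 mo was 1.20 ± 0.80, 1.53 ± 0.91, -0.22 ± 0.81 and 3.61 ± 1.01 (SE). At 3 mo the 4 DU libraries had 69556, 402995, 37440 and 5102 scaled CPM and the 4 Ta libraries 46686, 43088, 22720 and 86182. DU replicate 2 alone was above all Ta libraries there, and DU replicate 4, with 518 counts, was below all of them. At 12 mo the 4 DU libraries had 944989, 603836, 38142 and 110487 scaled CPM and the 4 Ta libraries 40463, 34964, 14604 and 14986. DU replicate 3 therefore fell within the range of Ta. The log2 ratio of miR-451-5p to miR-23a-3p averaged -1.55 over DU and 0.03 over Ta libraries, with medians of -2.11 and -0.06. The Ta mean includes replicate 3 of 3 mo, at 6.74 with 1645 counts. The DU mean includes replicate 4 of 3 mo, at 0 with 518 counts. The part of this ratio in the difference was not tested.

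For the other 7 metals averaged over months, edgeR's quasi-likelihood test with Benjamini-Hochberg adjustment over 320 microRNAs called 1 of 21 member tests, miR-191a-3p in Pb. Over all microRNAs and the same 7 averages, 0.714% of tests were called. All 7 averages use the same Ta libraries, so they are not independent. miR-191a-5p was called in none of them: its log2 differences ran from -0.30 ± 0.43 (SE) in W to 0.81 ± 0.42 in Cu (edgeR adjusted p = 0.697), with 0.74 ± 0.42 in Al, 0.51 ± 0.42 in Fe, 0.11 ± 0.42 in Pb, -0.16 ± 0.49 in Ni and -0.28 ± 0.42 in Co. A list of 14 microRNAs in use as references for serum and plasma had 2 calls over the same 7 metals, 1 that fell in Cu and 1 that fell in Pb.

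**Figure D3:**
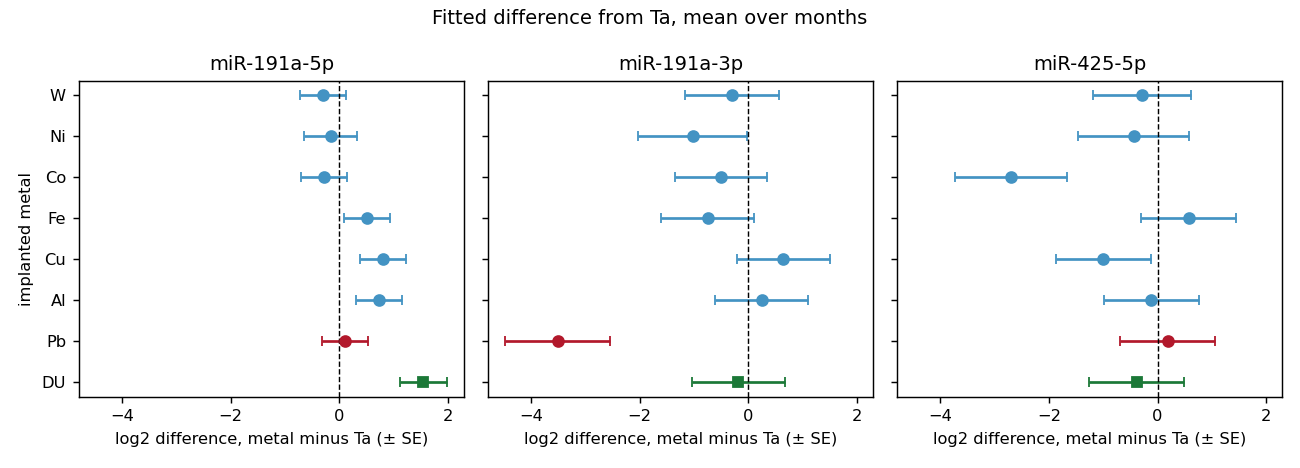
Fitted log2 difference of each metal from Ta, averaged over months, for the 3 members; points are estimates, bars 1 SE, and the DU squares describe a contrast that was used to choose the members. The estimate of miR-191a-3p in Pb, -3.51, lies furthest from 0, and that of miR-425-5p in Co, -2.70, is next.

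miR-191a-3p in Pb was lower than in Ta by 3.51 ± 0.96 (SE) on the log2 scale, and its edgeR adjusted p was 0.0229. In this Pb average 4.38% of the 320 microRNAs tested were called as lower. The average is made of unlike months, and the 6 mo group, with no count, sets its size: without 6 mo the log2 difference was -0.69 and the adjusted p 1. Without the 6 libraries under 20000 counts the difference was -3.33 and the adjusted p 0.0551. The median log2 difference of all microRNAs in Pb was -0.29.

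Leaving out a single library ended the call of that average in 9 of 31 cases, with edgeR adjusted p from 0.0019 to 0.206 over all 31. The largest value came without Ta replicate 4 at 3 mo (log2 -2.44, adjusted p 0.206), followed by Ta replicate 2 at 6 mo (-2.91, 0.107). Without Pb replicates 1, 3 or 4 at 1 mo the adjusted p was 0.066, 0.0689 or 0.0751. Without Pb replicate 4 at 3 mo it was 0.0582, without Pb replicate 1 at 6 mo 0.0753, and without Pb replicates 2 or 4 at 12 mo 0.064 or 0.0602. The direction stayed below Ta in all 31.

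The single months show where the Pb difference lay. At 1 mo the 4 Pb libraries had 797, 654, 368 and 411 scaled CPM of miR-191a-3p and the 4 Ta libraries 156, 132, 86.2 and 311, so that all Pb libraries were above all Ta libraries (log2 difference 1.84 ± 0.83, edgeR adjusted p = 0.327). At 3 mo only Pb replicate 2, with 67.8, held any, against 32.7 and 422 in the 2 Ta libraries with counts. At 6 mo all 4 Pb libraries were at 0, and the 3 Ta libraries had 306, 1173 and 92.7. At 12 mo the Pb libraries had 21.2, 10.4, 246 and 108 and the Ta libraries 193, 132, 98.1 and 224, and the groups overlapped (log2 difference -0.48 ± 1.01, edgeR adjusted p = 0.894).

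At 6 mo, miR-191a-3p in Pb was the only call among the 81 tests of the 3 members in 7 metals at single months. Its edgeR adjusted p was 0.00462, in a comparison where 2.94% of the 272 microRNAs tested were called as lower. The median log2 difference of all microRNAs there was -0.86. Under other edgeR settings that median ran from -1.27 (with a replicate block) to -0.15 (with no low-count filter). Pooled over the 27 comparisons of the 7 metals with Ta at single months, 0.206% of tests were called. A count of 0 in the 4 Pb libraries allows up to 3 counts, or 1.28 scaled CPM over the group, for counting error only, and the Ta mean was 524 ± 572 scaled CPM (SD, n = 3). Without Ta replicate 2 the Ta mean was 199, and without replicates 1 or 3 it was 633 or 739. No fold is given, since a scarce microRNA could be far above 3 counts in one of these Pb libraries and at 0 in the next, as miR-425-5p was with 259 counts in replicate 1 and 0 in the other 3. The fitted log2 value, -12.3, depends on the prior count and bounds nothing. The call held without each of the 7 libraries in turn, with adjusted p from 0.00561 to 0.0226.

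The partner arm was present in the same Pb libraries. At 6 mo they had 258386, 13692, 44683 and 15677 counts of miR-191a-5p, 332438 in all, and no count of miR-191a-3p. The 3 Ta libraries had 1095101 counts of miR-191a-5p and 1459 of miR-191a-3p, or 751 per count of the 3p arm (524, 1496 and 709 without Ta replicates 1, 2 and 3). Pb replicate 1 supplied most of the 5p counts, and the other 3 Pb libraries had 74052 in all.

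The absence of miR-191a-3p at 6 mo was not confined to Pb and went with the number of microRNAs detected. Of the 30 libraries of the other metals and Ta, 27 held it, and the 3 at 0 were Fe replicate 3 (100 microRNAs detected), DU replicate 3 (86) and DU replicate 4 (77, with 1361752 counts). All 7 libraries of 6 mo without it had 70 to 100 microRNAs detected, and all 27 with it had 121 to 260. All 4 Pb libraries are among the 7, so at 6 mo Pb and a small number of detected microRNAs cannot be told apart, which holds also for the Pb average, the interaction and the arm ratio that rest on this month. At 3 mo the numbers overlapped, with 86 to 251 in libraries with it and 22 to 150 in those without, and at 1 mo all 36 libraries held it, with 53 to 267.

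The Pb libraries at 6 mo held 812550, 156881, 407899 and 358805 counts and 88, 70, 96 and 89 detected microRNAs, against 1271569, 1354321 and 720097 counts and 198, 223 and 168 microRNAs in Ta. The summed level of the 5 measured erythrocyte markers ran from 5235 to 9210 scaled CPM in Pb, with 2 of the 5 at 0 in every library, and from 1889 to 16304 in Ta, with none at 0. The 4 muscle markers (miR-206-3p, miR-133b-3p, miR-133a-3p and miR-1-3p) summed to 0 to 2949 in Pb, with 1 at 0 in every library, and 643 to 4425 in Ta.

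The metal effect on miR-191a-3p differed between months in Pb. The interaction of Pb with month had F = 6.51 and an edgeR adjusted p of 0.0189, where 4.06% of microRNAs were called. It was the only call among 21 interaction tests of the members, and pooled over the 7 metals 1.56% of all interaction tests were called. For miR-191a-5p the interaction in Pb had an edgeR adjusted p of 0.0708 and that in Fe 0.0792.

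At 12 mo, when the Ta libraries had 40463, 34964, 14604 and 14986 scaled CPM of miR-191a-5p, most metals were above them. Fe had 335868, 423501, 169600 and 102367, and Cu had 166956, 208111, 323374 and 43823. Pb had 109041, 187562, 154731 and 77412, and Co had 47401, 61282, 252614 and 75014. All 4 libraries of each of these 4 metals were above all Ta libraries. Al, with 436331, 380987, 29816 and 19932, and W, with 87139, 82405, 4837 and 28922, overlapped Ta.

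The low Ta values at 12 mo were part of the contrast with DU that chose miR-191a-5p, so these levels, and the counts and calls against them, are descriptions and support nothing. Higher with no overlap held for miR-191a-5p in 4 of 6 metals at 12 mo, and for 3.48% of all pairs of a microRNA and a metal there. Over all months, 7 of 81 member comparisons had no overlap with Ta, against 4.02% of all pairs. The other 3 were miR-191a-3p in Pb, higher at 1 mo and lower at 6 mo, and miR-425-5p in Fe at 6 mo, with 200, 199, 1437 and 247 scaled CPM against 173, 62.0 and 53.0 in Ta. All the comparisons of a month share the same Ta libraries, so a low control at 12 mo enters every metal's difference.

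By edgeR no metal among these 6 passed the threshold for miR-191a-5p at 12 mo: the log2 differences were 3.26 ± 1.00 in Fe (adjusted p = 0.214), 2.84 ± 0.98 in Al (0.197), 2.75 ± 0.98 in Cu (0.216), 2.62 ± 0.97 in Pb (0.156), 1.96 ± 0.95 in Co (0.539) and 0.91 ± 0.92 in W (0.971). The call depended on the tool and the filter. DESeq2 called Fe, Al, Cu and Pb, where it called 4.91% of all tests at 12 mo. edgeR with no low-count filter called the same 4 metals, where it called 1.36% of all tests at 12 mo. Without the libraries under 20000 counts, edgeR called Fe, with an adjusted p of 0.0499, just under the threshold. In that comparison it called 4 of 242 microRNAs. The low-count filter leaves miR-191a-5p itself in the table in every case.

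Over the 27 single-month comparisons, DESeq2 called 6 of 81 member tests and 4.49% of all tests: the 4 of 12 mo, miR-191a-3p in Pb at 6 mo and miR-425-5p in Co at 3 mo. edgeR with no filter also called 6 of 81, and 0.964% of all tests: the 4 of 12 mo and, in Pb at 6 mo, miR-191a-3p and miR-191a-5p, the latter lower by a log2 difference of -1.93. With the filter that last difference was -1.73 ± 0.82 (edgeR adjusted p = 0.222), from 276686, 44186, 74826 and 31260 scaled CPM in Pb and 468043, 528290 and 127186 in Ta. Pb replicate 1 lay inside the range of Ta. The median log2 difference of all microRNAs in that comparison was -0.86 with the filter and -0.15 without it.

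miR-425-5p was not called by edgeR in any of the 7 averages. Its lowest was Co, at a log2 difference of -2.70 ± 1.03 (edgeR adjusted p = 0.148), and its highest was Fe, at 0.57 ± 0.88. The Fe value rests on Fe replicate 4 at 3 mo, with 920 counts the only Fe library of that month to hold any; without it the log2 difference was -2.17. The Co value rests on 3 mo, where all 4 Co libraries were at 0 with 115671 to 214004 counts each, while 2 of 4 Ta libraries held 455 and 111 scaled CPM and the other 2 were at 0. At 12 mo the 4 Co libraries had 95.7, 156, 103 and 230, above the Ta values of 21.5, 0, 157 and 131 in median and overlapping them. DESeq2 called 2 of 21 averages, Co for miR-425-5p (log2 -5.69, adjusted p = 6.11e-11) and Pb for miR-191a-3p, and it called 14.8% of all tests of the averages.

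The balance of the hairpin arms was compared through the log2 ratio of miR-191a-5p to miR-191a-3p counts in a library, with 0.5 added to each count. This ratio is free of the scaling, but where the 3p arm has no count it is set by the number of 5p counts. At 12 mo it was 7.70, 8.04, 7.21 and 6.06 in the Ta libraries. In the Pb libraries of 12 mo it was 12.2, 14.02, 9.29 and 9.48, above all 4 Ta libraries. The same held at 12 mo for 5 of the 7 metals other than Ta: the lowest library was at 8.25 in Co, 9.01 in Fe, 9.08 in DU, 9.23 in Cu and 9.29 in Pb, while Al and W overlapped Ta. At 1 and 3 mo it held for none of 8 metals, and at 6 mo for 1 of 8, Pb. At 1 mo it was 10.1, 8.50, 8.91 and 10.7 in Pb against 9.80, 9.63, 12.6 and 9.44 in Ta. In those 5 metals at 12 mo, the fitted log2 differences of miR-191a-5p from Ta ran from 1.96 (Co) to 3.61 (DU). Those of miR-191a-3p ran from -0.48 (Pb) to 1.27 (Fe). The 12 mo ratios thus share the low miR-191a-5p of Ta that entered the choice of members. The count of 5 metals is a description and supports nothing, and no share over other microRNAs was computed for it.

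Averaged over months, the log2 arm ratio was 12.3 in Pb and 9.26 in Ta, a difference of 3.04, higher in 3 of 4 months. In a two-sided permutation test of the labels within months this gave p = 0.0023 and, over 14 ratio tests, an adjusted p of 0.0322. The other 6 metals differed from Ta by -0.01 (W) to 1.87 (Fe, permutation p = 0.0395, adjusted p = 0.277) and none passed. For DU, not tested, the difference was 2.27. Without 6 mo the Pb difference was 1.93 (permutation adjusted p = 0.421), and without the libraries under 20000 counts it was 2.69 (adjusted p = 0.0833).

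Leaving out a single library ended the call of the arm ratio in 7 of 31 cases, with differences from 2.69 to 3.47 and permutation adjusted p from 0.00406 to 0.0728. At 3 mo these were Ta replicates 3 (0.0728) and 4 (0.0671) and Pb replicates 1 (0.0714) and 4 (0.0664). The others were Pb replicate 1 at 6 mo (0.0529), Ta replicate 2 at 6 mo (0.0543) and Pb replicate 4 at 1 mo (0.0503). The ratio was higher in Pb than in Ta in all 31.

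**Figure D4:**
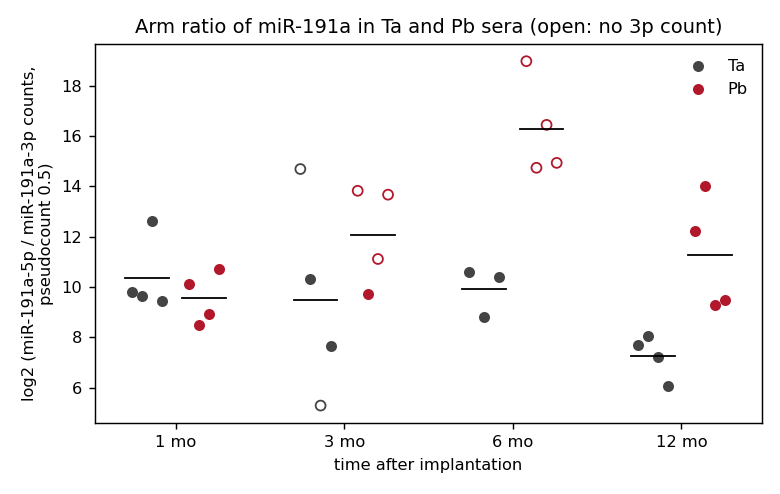
Log2 ratio of miR-191a-5p to miR-191a-3p counts, pseudocount 0.5, in each Ta and Pb library by month; bars are group means and open symbols are libraries with no miR-191a-3p count, where the value follows the number of 5p counts. At 6 mo all 4 Pb libraries are open, and at 12 mo the lowest Pb value, 9.29, is above the highest Ta value, 8.04, as are all libraries of Co, Fe, Cu and DU, which are not drawn. The Ta libraries of 12 mo were low in miR-191a-5p, which enters these ratios.

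The log2 ratio of miR-191a-5p to miR-425-5p, which compares the neighbouring hairpins, passed in none of the 7 metals. Its differences from Ta ran from 0.07 in W to 1.39 in Cu (permutation p = 0.111, adjusted p = 0.518), with 1.29 in Pb and 1.18 in Co. Summed over libraries, there were 4168, 442, 2526 and 1535 counts of miR-191a-5p per count of miR-425-5p at 1, 3, 6 and 12 mo. The same ratio to miR-191a-3p was 1186, 356, 1050 and 742. Both are sums over libraries of unequal depth. Averaged over libraries, the log2 ratio to miR-425-5p was 11.95, 9.98, 12.23 and 10.93 in the same order. The log2 arm ratio averaged 10.02, 11.05, 11.45 and 9.25. Both sets of averages include libraries where the scarcer member had no count. For the arm ratio these were 22 libraries at 3 mo, whose values follow the number of 5p counts and raise the mean. The 14 libraries of 3 mo with miR-191a-3p counts lay from 6.91 (Co replicate 4) to 10.88 (DU replicate 2). The mean at 3 mo therefore gives no direction of the arm ratio from 1 to 3 mo.

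Within a month, the levels of both arms of miR-191a were correlated across libraries, where those with no miR-191a-3p count share a floor value. At 3 mo 22 of all 36 libraries had no count of it, among them the 4 under 20000 counts, which are left out next. At 6 mo 7 of 34 had none. At these months the correlation thus also sets libraries with miR-191a-3p against those without. Over the libraries with at least 20000 counts, the Pearson correlation of log2 scaled CPM of the 5p and 3p arms was r = 0.626 (n = 35), 0.515 (n = 32), 0.771 (n = 34) and 0.459 (n = 31) at 1, 3, 6 and 12 mo. Adjusted over 12 correlations, the permutation p-values were 0.00042, 0.00888, 0.00012 and 0.0242, and Spearman's rho was 0.631, 0.395, 0.77 and 0.5 (adjusted permutation p 0.00072, 0.0766, 0.00012 and 0.0182). Without the 2 libraries furthest from the median of the 5p arm, r was 0.539, 0.412, 0.71 and 0.438. The points share a library's scaling factor: on shares of raw counts, r was 0.38, 0.422, 0.643 and 0.282, and the 6 mo value alone passed (adjusted permutation p 0.0982, 0.0958, 0.00072 and 0.245).

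**Figure D5:**
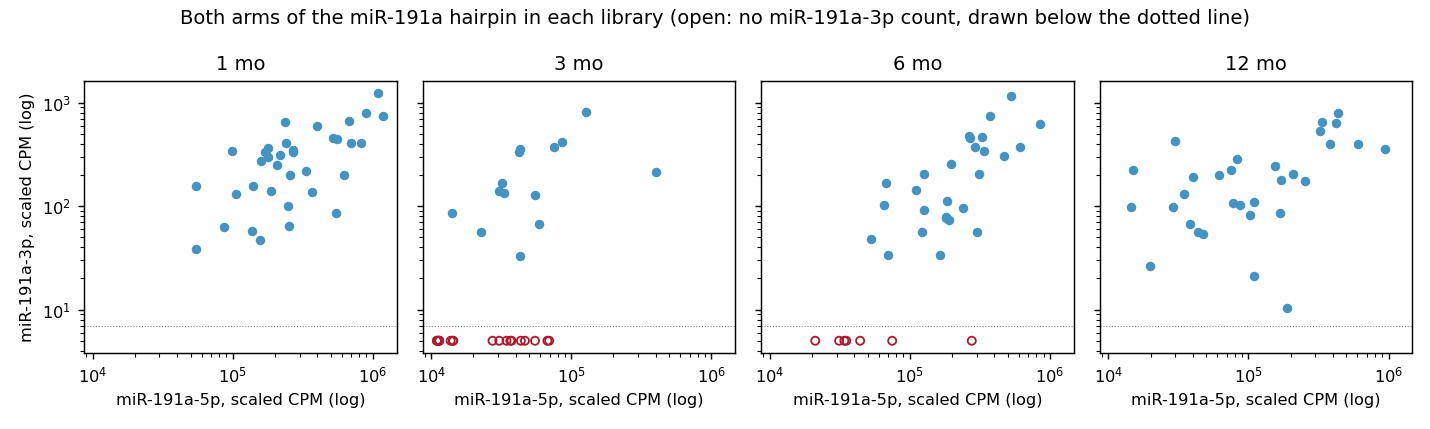
Scaled CPM of miR-191a-3p against miR-191a-5p (both log axes) in libraries with at least 20000 counts, in a panel per month; open symbols below the dotted line are libraries with no miR-191a-3p count. The cloud rises at each month, with r from 0.459 at 12 mo to 0.771 at 6 mo, and the 6 mo libraries at 0 include one with 276686 scaled CPM of the 5p arm.

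For miR-425-5p the same correlations were computed, and their difference from those of the arms was not tested. Its correlation with miR-191a-5p was r = -0.02, 0.302, 0.369 and 0.173 at 1, 3, 6 and 12 mo, and rho was 0.164, 0.282, 0.324 and 0.003. Neither measure passed at any month (lowest adjusted permutation p 0.0638 for r and 0.122 for rho, both at 6 mo), and without the 2 libraries furthest from the median r was -0.04, 0.281, 0.201 and 0.266. With miR-191a-3p, r passed at 6 mo (r = 0.436, adjusted permutation p = 0.0242; rho = 0.354, adjusted p = 0.0978; r = 0.301 without the 2 libraries) and not at 1, 3 or 12 mo, where it was -0.01, -0.03 and -0.04.

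Among 102 microRNAs detected in at least 80% of the 132 libraries with 20000 counts or more, the mean within-month Spearman correlation with miR-191a-5p had a median of 0.098, a description over libraries that share scaling. The most alike were miR-148a-3p (0.657), miR-146b-5p (0.606) and miR-151-3p (0.591), followed by miR-191a-3p and miR-342-3p (0.574 each). On shares of raw counts the order changed, with miR-191a-3p first (0.440), then miR-146b-5p (0.432), miR-148a-3p (0.408) and miR-151-3p (0.358). miR-425-5p had 0.194, and 35 of the 102 were more alike.

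As miR-191-5p serves as a reference in serum assays, its spread was set beside that of the 14 listed reference microRNAs. Over the 132 libraries the SD of log2 scaled CPM was 1.71 for miR-191a-5p, 36th from the lowest of 103 commonly detected microRNAs. The reference list had a median SD of 1.87. Of the 14, 6 lay below miR-191a-5p: miR-24-3p (0.872), let-7i-5p (0.925), miR-423-5p (1.17), let-7a-5p (1.26), miR-451-5p (1.40) and miR-30e-5p (1.51). These 6 were the listed references detected in all 132 libraries, as miR-191a-5p was. The other listed references were detected in 66.7% (miR-93-5p) to 98.5% (miR-23a-3p) of them, so their SD also depends on counts of 0. Every listed reference detected throughout thus had a lower SD than miR-191a-5p. Across months it varied more: its range of month means, 2.98 on the log2 scale, was wider than that of all 14 reference microRNAs, whose median was 1.99, and 90th of 103. The month range is part of what chose the members and is given as a description. miR-425-5p had a wider SD, 2.44, and a narrower month range, 1.46, and miR-191a-3p had an SD of 2.83 and a month range of 4.09, both of which depend on how counts of 0 enter the log scale.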

How the data were processed

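Serum small RNA was measured in 138 libraries. The deposited table holds whole-number counts of 471 mature microRNAs per library, made by the authors; the submitters' processing notes name build Rnor_6.0, and the sources used here give neither aligner nor counter. Its 138 count columns matched the sample titles. Members and lists were chosen with earlier results of these data known. The named genes were the 3 members, plus the microRNAs most like miR-191a-5p and the listed reference and marker microRNAs. Counts were scaled by the trimmed mean of M-values and tested with edgeR 4.0.16 (R 4.3.3) quasi-likelihood fits after its low-count filter (minimum count 10, minimum total 15), which left 320 microRNAs over all libraries and 270, 167, 272 and 224 at 1, 3, 6 and 12 mo. Averages over months, interactions and month differences came from 35 group means, single months from fits of that month. Adjustment was Benjamini-Hochberg per comparison, with a threshold of 0.05. The SE was taken as the log2 difference over the root of F. Ratios were tested by 100000 permutations of labels within months (Python 3.11.15, scipy 1.17.1), and correlations by 100000 permutations. Log2 levels for correlations and spread used a prior count of 2. Alternatives were DESeq2 1.42.0, relative log expression (RLE) scaling in edgeR, no filter, a replicate block and scaling without miR-191a-5p. Further ones were leaving out libraries under 20000 counts, and leaving out each library. The fit was also run on simulated counts with known changes in Pb that were the same at every month. Its outcome is not given here, and it did not simulate a microRNA lost at a single month. Depth limits precision: a count of 0 allows up to 3 counts.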

Additional observations from a re-analysis of the deposited data

Results flagged for a closer look

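Dixon's test on the log2 scale was set up for 99 cases, each member in each group of 4 libraries. It could not be run for miR-191a-3p in Pb at 6 mo or miR-425-5p in Co at 3 mo, where no library had a count. In 14 of the remaining tests a library was set far from the other 3, where chance flags about 1 in 20. Of the 14, 8 are single libraries with counts in a group otherwise at 0. There the gap fills the whole range, so that rate does not apply to them. At 3 mo, miR-191a-5p had 42844 scaled CPM in Co replicate 4 against 10980 to 11386 in the other 3 libraries, and 59065 in Pb replicate 2 against 11369 to 13773. At 3 mo, miR-191a-3p had counts in a single library of 5 groups, with 369 scaled CPM in Al replicate 4, 355 in Co replicate 4, 213 in DU replicate 2, 56.0 in Fe replicate 3 (6 counts) and 67.8 in Pb replicate 2 (24 counts). Co replicate 4 and Pb replicate 2 were thus the high libraries of their groups for both arms.

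miR-425-5p had counts in a single library of Cu at 3 mo (replicate 2, 41.9 scaled CPM), Fe at 3 mo (replicate 4, 1030) and Pb at 6 mo (replicate 1, 277). It was high in Fe replicate 3 at 6 mo, with 1437 against 199 to 247, and in Pb replicate 4 at 12 mo, with 219 against 42.0 to 53.1. It was low in Fe replicate 4 at 12 mo, with 26.1 against 71.9 to 82.0, and in Pb replicate 4 at 1 mo, with 0 among 2013801 counts against 64.7 to 124 in the other 3 libraries.

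The effect of Pb on miR-191a-3p differed between months by the interaction test of edgeR, with an adjusted p of 0.0189. All 4 Pb libraries of 6 mo, where it was at 0, were among the 7 libraries of that month with 100 or fewer microRNAs detected, all of which lacked it.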

How the results depend on the processing

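Of 129 values of the 21 averages under other settings, 119 kept their direction and their side of the threshold. The exceptions in direction were uncalled values near 0. For miR-191a-3p in W the value was 0.11 with RLE scaling in edgeR. For miR-191a-5p in Ni it was 0.0745 with no filter and 0.0075 with scaling without miR-191a-5p. For miR-425-5p in Al it was 0.0334 with no filter and 0.15 with scaling without miR-191a-5p. The same Al value was 0.0802 without the libraries under 20000 counts and 0.0129 by DESeq2. The correlation of miR-191a-3p with miR-425-5p at 1 mo was 0.0030 without the 2 libraries furthest from the median. RLE scaling in edgeR moved the median of all microRNAs by 0.17 in W, 0.13 in Co, -0.14 in Cu and -0.17 in Al.

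The members called among the averages were 0 without the libraries under 20000 counts and 2 by DESeq2. At single months they were 6 with no filter, 2 without the libraries under 20000 counts and 6 by DESeq2. Interaction calls were 2 with RLE scaling in edgeR and 6 with no filter. The share of all microRNAs called in the interactions under these settings is not given here, so these counts are not a result about the members. Ratio calls were 0 without the libraries under 20000 counts, and correlation calls fell from 5 to 1 on shares of raw counts. The cause of these changes was not tested.

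Leaving out a library in turn gave 0 to 1 calls among the averages, 1 to 1 at single months and 1 to 2 among the interactions. For uncalled averages whose direction turned, the log2 differences ran from -0.50 to 0.47 (miR-191a-3p in W), -0.62 to 0.19 (miR-425-5p in W), -0.26 to 0.14 (miR-191a-5p in Ni), -1.19 to 0.13 (miR-191a-3p in Ni), -1.34 to 0.13 (miR-425-5p in Ni), -2.87 to 0.35 (miR-191a-3p in Co), -2.36 to 0.0118 (miR-191a-3p in Fe), -2.17 to 1.11 (miR-425-5p in Fe), -0.10 to 1.57 (miR-191a-3p in Cu), -2.08 to 1.16 (miR-191a-3p in Al), -0.31 to 0.42 (miR-425-5p in Al) and -1.88 to 0.56 (miR-425-5p in Pb).

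Whether the replicate numbers pair the libraries is not known. Same-numbered libraries of a metal at different months had a median correlation of -0.01, from -0.43 to 0.51. Differently numbered ones had a median of 0.0009, from -0.58 to 0.55. For same-numbered libraries of different metals at a month the median was 0.01. These medians cannot show whether libraries share a rat. With the replicate block the calls were 1 among the averages, 1 at single months and 1 among the interactions, with miR-191a-3p in Pb at -3.41 (edgeR adjusted p = 0.0373) in the average and -12.0 (adjusted p = 0.0087) at 6 mo. The average and the arm ratio of Pb without 6 mo, and the ratio without each library, were added after the data were seen. The 3 mo libraries, with a median of 286094 counts, limit what can be said of miR-191a-3p and miR-425-5p at that month.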
